A study of Homo sapiens with 21 samples.

Results

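The response of U937 cells to knockdown of the kinase SYK was set against the response of HL-60 cells, gene by gene, with Affymetrix human expression arrays, on which a set of short oligonucleotide probes reads each transcript. U937 and HL-60 are human myeloid lines kept in culture, and each stands for itself only. The comparison used the 14 U937 and HL-60 arrays of the 21 in the study, which also profiled the line MOLM-14. U937 gave 2 arrays with the hairpin shSYK_1, 2 with shSYK_2 and 3 with shLuciferase, a control hairpin against luciferase, which human cells lack. HL-60 gave the same 3 groups with the same numbers. Cells of all 6 groups carried a hairpin, were kept in 1 µg/ml puromycin from 48 h after infection and gave total RNA on day 5. The labels describe separate transductions of each line, so p-values measure the spread between transductions and do not reach beyond these lines.

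A response is the average of the shSYK_1 and shSYK_2 group means minus the shLuciferase mean, in log2 units of intensity. The line difference is the U937 response minus the HL-60 response, so a positive value means that a gene went higher, or fell less, in U937 than in HL-60. Of the 12165 genes tested, 5886 were above the lowest intensities in both lines, 950 were near them in 1 line and 5329 in both. A gene counts as near the lowest intensities in a line where none of that line's 3 group means reaches 5 on the log2 scale, an intensity of 32. Differences of such genes were set apart, since a level that low leaves little room for a fall and can hide a rise. They stay in the counts of the gene lists.

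SYK is a cytoplasmic tyrosine kinase that docks on phosphorylated ITAM motifs of Fc receptors, TREM receptors and their adaptors, and on integrins, and passes the signal on to phospholipase C, PI3-kinase and the ERK pathway. In myeloid cells it is known for its part in phagocytosis, adhesion and cytokine release. U937 is commonly used as a monocytic line and HL-60 as a promyelocytic one, and both can be driven to mature further in culture. In bulk RNA a lower level can come from fewer cells that express a gene or from less RNA in each cell, and the arrays cannot tell these apart.

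The lines carried the markers of their labels only in part. Among promyelocytic granule genes, MPO averaged 3.38 ± 0.24 in U937 shLuciferase arrays and 12.80 ± 0.05 in HL-60 shLuciferase arrays (log2 intensity, SD, n = 3 each), while ELANE averaged 12.47 ± 0.01 in U937 and 11.59 ± 0.05 in HL-60. PRTN3 was lower in U937, at 8.62 against 10.29 in HL-60. AZU1 and CTSG were higher in U937, at 9.52 and 13.29 against 6.98 and 11.47. Of the monocytic genes, the lipopolysaccharide receptor CD14 averaged 2.75 ± 0.18 in U937 and 6.55 ± 0.06 in HL-60. The receptor CSF1R averaged 3.92 ± 0.08 in U937 and 4.07 ± 0.18 in HL-60. FCN1 and CD4 were higher in U937, at 5.75 and 6.06 against 4.92 and 5.23 in HL-60. MPO and CD14 were thus near the lowest intensities in U937 and CSF1R in both lines. Of 57 measured markers of erythroid, megakaryocyte, T, NK, B, epithelial and stromal cells, 53 stayed below 5 in all 6 groups and limma called 0 for the line difference, with 6 at an unadjusted p under 0.05. NKG7, a granule protein of killer cells, was the brightest, with a highest group mean of 10.35.

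The hairpins are shown because the results below turn on how far both gave the same line difference. Per the labels, they match these 21-base targets in SYK, which lies on chromosome 9:
shSYK_1: gcagcagaacagacatgtcaa
shSYK_2: gcaggccatcatcagtcagaa
Both are written in lower case, 5′ to 3′.

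Labels of 1 array disagreed. HL-60 shSYK_2 replicate 1 is shSYK_2 by its title and its treatment label, and shSYK_1 by its source label, and it was kept in shSYK_2. Over all genes the SD of its log2 differences was 0.294 from HL-60 shSYK_2 replicate 2, 0.431 and 0.392 from the HL-60 shSYK_1 arrays, and 0.387 to 0.396 from the HL-60 shLuciferase arrays, where other replicate pairs gave 0.164 to 0.199. Of 150 genes that separated the hairpins by at least 1 log2 unit in U937, it lay nearer shSYK_2 replicate 2 than the mean of the shSYK_1 arrays in 118. Some results below are also given without this array, which leaves 1 array in its group. The others include it, and some of those moved without it as well.

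SYK itself was lowered in both lines. In U937 SYK read 7.02 and 6.97 with shSYK_1, 6.56 and 6.55 with shSYK_2, and 8.66, 8.70 and 8.70 with shLuciferase. In HL-60 it read 7.04 and 7.001 with shSYK_1, 6.66 and 6.90 with shSYK_2, and 8.91, 9.05 and 9.004 with shLuciferase. No hairpin array overlapped a control array in either line. The transcript fell to 26.7% of the control level in U937 (log2 change -1.91, limma adjusted p = 1.313e-08) and to 23.5% in HL-60 (-2.09, limma adjusted p = 4.443e-09). The line difference of 0.18 ± 0.09 (SE) did not pass the test (limma adjusted p = 0.323).

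FLT3, a receptor tyrosine kinase, and MYC, the growth-promoting transcription factor, did not pass for the line difference over both hairpins either. The FLT3 response was -0.33 in U937, where its probe set was near the lowest intensities, and -0.47 in HL-60 (line difference 0.13 ± 0.19, limma adjusted p = 0.772). In HL-60 FLT3 changed by -0.90 with shSYK_1 and by -0.03 with shSYK_2, the latter not called. MYC fell by 0.44 in U937 and by 0.71 in HL-60, a line difference of 0.27 ± 0.09 (limma adjusted p = 0.113). With shSYK_2 alone its line difference of 0.42 was called (limma adjusted p = 0.0381), and with shSYK_1 alone 0.12 was not (limma adjusted p = 0.59). In U937 MYC changed by -0.75 with shSYK_1 and by -0.14 with shSYK_2, the latter not called (limma adjusted p = 0.287).

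The test called 609 of 12165 genes for the line difference, 5.01% of those tested, with the U937 response above the HL-60 response in 221 (1.82%) and below it in 388 (3.19%). After centring each array on its median the split was 366 above and 314 below, although that centring moved the median line difference of all genes only to 0.04. U937 alone changed 1533 genes (12.6%), 750 of them upward (6.17%) and 783 downward (6.44%). HL-60 alone changed 2641 (21.7%), 1245 upward (10.2%) and 1396 downward (11.5%). With median centring HL-60 gave 1018 upward and 1828 downward, and U937 775 upward and 753 downward. Most of what was shared ran the same way: 855 genes were called in the same direction in both lines, 55.8% of the U937 calls and 32.4% of the HL-60 calls, and 24 in opposite directions. The Pearson correlation of the 2 responses across genes was 0.653 over the 5886 brighter genes and 0.499 over all, and genes are not independent replicates.

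**Figure D1:**
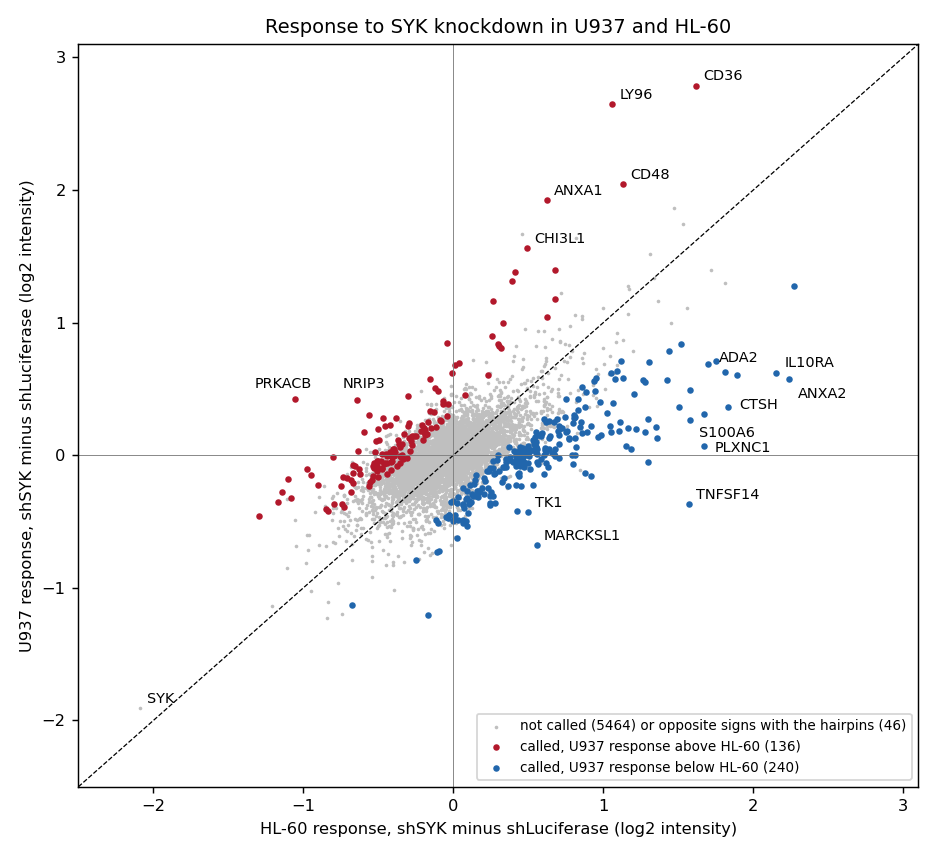
Response to SYK knockdown in HL-60 (horizontal) and U937 (vertical), each the mean of both SYK hairpins minus shLuciferase in log2 intensity, 1 point per gene above the lowest intensities in both lines. The 136 red genes lie above the dashed line of equal response and the 240 blue ones below it, many of them with values near 0 in U937, and SYK sits near -2 in both lines.

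Among the 422 called genes above the lowest intensities in both lines, 376 had a line difference of the same sign with each hairpin, 136 above and 240 below. Their median size was 0.49 log2 units, and 31 of the 376 reached 1. In 81 the gene fell in HL-60 with no call in U937, all among those above, and the commonest class among those below was a rise in HL-60 with no call in U937. A further 63 rose in both lines by unequal amounts and 15 fell in both. In U937 45 fell and 18 rose with no call in HL-60. A call in one line and none in the other is not itself a difference, and the line difference is the test of it. A fit with a replicate block, a term for each replicate number in each line, kept 60 of the 376 called. By the same rule as for the 376, it gave 61 genes (15 above, 46 below). Without HL-60 shSYK_2 replicate 1, limma called 713 genes (232 above, 481 below), and 344 of the 376 remained called. By the same rule as for the 376, that fit gave 453 genes (139 above, 314 below), the fit without HL-60 shSYK_2 replicate 2 gave 793 (487 above, 306 below), median centring gave 441 (251 above, 190 below), and moving the array of doubtful label to shSYK_1 gave 91 (26 above, 65 below), so which direction was the commoner depended on the setting. Without HL-60 shSYK_2 replicate 2 it called 1329 (692 above, 637 below), and with replicate 1 moved to shSYK_1 it called 169.

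Among the 376, the 15 genes with the highest line differences included receptors and secreted proteins of monocytes and macrophages. The largest of these line differences belonged to LY96, which encodes the MD-2 co-receptor for lipopolysaccharide. LY96 read 6.73 and 6.53 with shSYK_1, 5.24 and 5.31 with shSYK_2, and 3.57, 3.32 and 3.04 with shLuciferase in U937. In HL-60 it read 5.26 and 4.86 with shSYK_1, 3.96 and 4.49 with shSYK_2, and 3.83, 3.56 and 3.36 with shLuciferase. Hairpin arrays lay above control arrays in both lines, and by more in U937. LY96 rose 6.25-fold in U937 (limma adjusted p = 9.577e-07) and 2.08-fold in HL-60 (limma adjusted p = 0.000587), a line difference of 1.59 ± 0.23 (SE, limma adjusted p = 0.00218). Its control means of 3.31 in U937 and 3.58 in HL-60 lay below 5, and in HL-60 only shSYK_1 reached that level, so the folds are uncertain. With 16 added to each intensity, which damps changes of dim probe sets, the line difference was 1.05, and the call was lost when the array of doubtful label was moved to shSYK_1.

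CD36, a scavenger receptor for oxidised lipids, followed the same pattern. It read 7.41 and 7.004 with shSYK_1, 5.72 and 5.87 with shSYK_2, and 3.90, 3.93 and 3.32 with shLuciferase in U937, against 6.39 and 6.21 with shSYK_1, 4.36 and 4.39 with shSYK_2, and 3.51, 3.79 and 3.85 with shLuciferase in HL-60. Its rise was 6.89-fold in U937 and 3.07-fold in HL-60, a line difference of 1.16 ± 0.21 (limma adjusted p = 0.00915). With shSYK_1 alone the line difference of 0.91 missed the threshold (limma adjusted p = 0.0535), and with shSYK_2 it was 1.42 (limma adjusted p = 0.00647). A second probe set of CD36 gave 1.502. The controls of CD36 lay below 5 as well, with means of 3.71 in U937 and 3.72 in HL-60, and with 16 added to each intensity the line difference was 0.87.

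ANXA1, a phospholipid-binding protein that damps inflammation, rose in both lines, over a control level that was lower in U937 than in HL-60. It read 9.15 and 9.03 with shSYK_1, 7.79 and 8.11 with shSYK_2, and 6.52, 6.57 and 6.70 with shLuciferase in U937, against 10.94 and 10.88 with shSYK_1, 10.39 and 10.50 with shSYK_2, and 10.08, 10.04 and 10.05 with shLuciferase in HL-60. All hairpin arrays exceeded the control arrays of their line. The line difference was 1.30 ± 0.11 (limma adjusted p = 5.185e-05).

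CHI3L1, a secreted chitinase-like glycoprotein, CD48, a SLAM-family surface receptor, and EVI2A, a membrane protein encoded within an intron of NF1, rose in both lines and more in U937. CHI3L1 rose by 1.56 in U937 and 0.49 in HL-60. CD48 rose by 2.04 in U937 and 1.13 in HL-60, and EVI2A by 1.31 in U937 and 0.39 in HL-60. Their line differences were 1.07 ± 0.12, 0.91 ± 0.10 and 0.92 ± 0.11 (limma adjusted p = 0.000366, 0.000326 and 0.000631). With shSYK_1 and shSYK_2 they were 1.09 and 1.05 for CHI3L1, 0.95 and 0.88 for CD48, and 0.79 and 1.06 for EVI2A.

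CYBB, the membrane subunit of the phagocyte NADPH oxidase, and CXCL8, a chemokine for neutrophils, depended on the probe set. CYBB rose by 1.16 in U937 and 0.26 in HL-60 (line difference 0.90 ± 0.11, limma adjusted p = 0.000554), and over the mean of its 3 annotated probe sets the line difference was 0.33 and not called. For CXCL8 the platform annotation names 9 probe sets, several of which carry accessions of other genes. The brightest gave 0.97 ± 0.12 (limma adjusted p = 0.000782) and another gave 0.63, not called. The mean of all 9 gave 0.19, not called, and may not read CXCL8 alone. The CXCL8 call was also lost in a fit of all 21 arrays. GPR18, a G protein-coupled receptor, stood at the threshold with 0.88 ± 0.23 (limma adjusted p = 0.0475) and lost its call in 14 of 24 alternatives.

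Another 3 of these 15 genes fell in HL-60 with no call in U937 over both hairpins. They were SLC39A14, a zinc and manganese importer, ADGRA3, an adhesion receptor, and ZBTB16, the transcription factor PLZF. With shSYK_1 alone all 3 fell in U937, at -0.45, -0.45 and -0.60 (limma adjusted p = 0.000882, 0.0259 and 0.00333). With shSYK_2 ZBTB16 rose there by 0.40 (limma adjusted p = 0.0325). The ZBTB16 line difference with shSYK_1, 0.31, was not called (limma adjusted p = 0.296), and with shSYK_2 it was 1.44. ZBTB16 reached a mean of 5 in U937 only with shSYK_2, and both HL-60 hairpin groups averaged below 5. The size of its change is thus uncertain. SLC39A14 read 6.65 and 6.69 with shSYK_1, 7.77 and 7.79 with shSYK_2, and 8.26, 8.39 and 8.33 with shLuciferase in HL-60. Its response was -0.18 in U937 and -1.10 in HL-60, a line difference of 0.92 ± 0.08 (limma adjusted p = 5.556e-05).

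**Figure D2:**
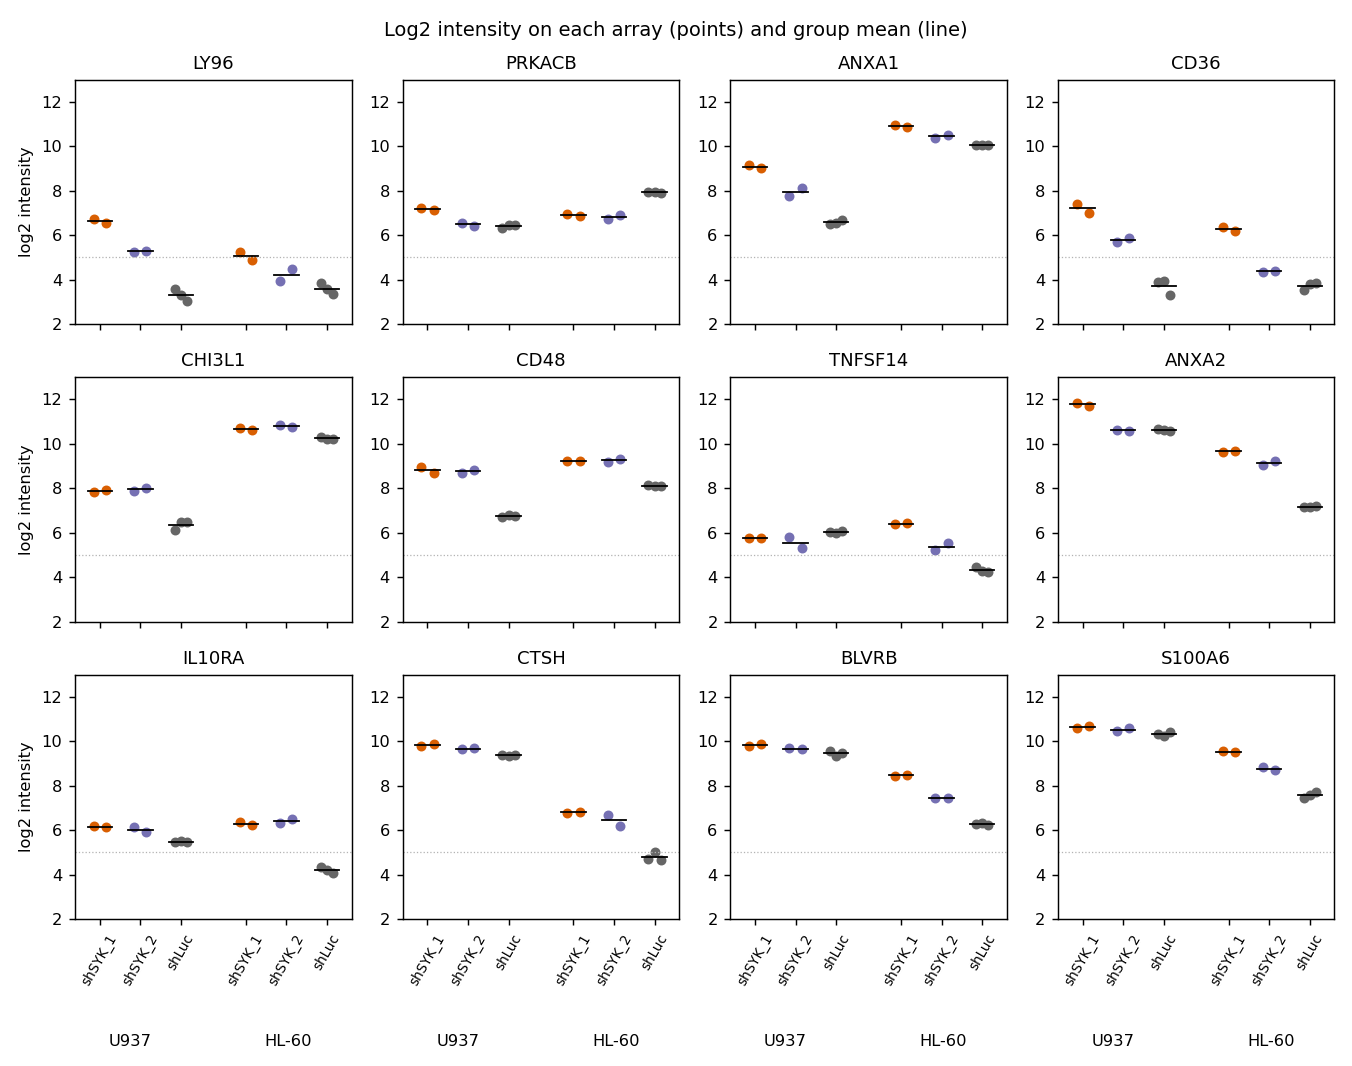
Log2 intensity of 12 named genes on each of the 14 arrays, U937 groups on the left of each panel and HL-60 groups on the right, with lines at group means and a dotted line at 5, the level taken as near the lowest intensities. LY96, CD36 and ANXA1 climb further from their controls in U937, while TNFSF14, ANXA2, IL10RA, CTSH, BLVRB and S100A6 climb further in HL-60.

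Among the 376, the 15 genes lowest in U937 relative to HL-60 were led by TNFSF14, the cytokine LIGHT. TNFSF14 read 5.74 and 5.76 with shSYK_1, 5.80 and 5.30 with shSYK_2, and 6.03, 5.97 and 6.06 with shLuciferase in U937. In HL-60 it read 6.38 and 6.43 with shSYK_1, 5.22 and 5.53 with shSYK_2, and 4.45, 4.28 and 4.24 with shLuciferase. All 4 hairpin arrays lay below the controls in U937 and above them in HL-60. The line difference was -1.94 ± 0.16 (limma adjusted p = 3.688e-05), from a U937 response of -0.37 that just passed (limma adjusted p = 0.0488) and a 2.97-fold rise in HL-60 (limma adjusted p = 1.594e-06).

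ANXA2, a membrane-binding annexin, had the smallest adjusted p of the 15. It read 11.86 and 11.72 with shSYK_1, 10.61 and 10.60 with shSYK_2, and 10.66, 10.61 and 10.59 with shLuciferase in U937, against 9.63 and 9.68 with shSYK_1, 9.05 and 9.23 with shSYK_2, and 7.14, 7.15 and 7.19 with shLuciferase in HL-60. In HL-60 it rose 4.72-fold from a control level below that of U937. In U937 it rose 1.49-fold, all of it with shSYK_1, since the shSYK_2 arrays lay on the controls. The line difference was -1.66 ± 0.09 (limma adjusted p = 1.558e-06), and all 3 probe sets of the gene gave -1.62 to -1.72.

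IL10RA, the ligand-binding chain of the interleukin-10 receptor, rose 4.44-fold in HL-60 and 1.54-fold in U937. It read 6.19 and 6.12 with shSYK_1, 6.13 and 5.92 with shSYK_2, and 5.45, 5.51 and 5.45 with shLuciferase in U937, against 6.36 and 6.23 with shSYK_1, 6.33 and 6.49 with shSYK_2, and 4.33, 4.22 and 4.05 with shLuciferase in HL-60. The hairpin arrays of both lines ended at like levels, while the controls started lower in HL-60. Its line difference was -1.53 ± 0.11 (limma adjusted p = 2.663e-05), with -1.41 for shSYK_1 and -1.65 for shSYK_2.

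CTSH and BLVRB also rose in HL-60. The lysosomal cysteine protease CTSH read 9.80 and 9.86 with shSYK_1, 9.65 and 9.70 with shSYK_2, and 9.40, 9.36 and 9.40 with shLuciferase in U937, against 6.77 and 6.82 with shSYK_1, 6.70 and 6.18 with shSYK_2, and 4.69, 5.03 and 4.64 with shLuciferase in HL-60. BLVRB, biliverdin reductase B of haem breakdown, read 9.81 and 9.88 with shSYK_1, 9.70 and 9.65 with shSYK_2, and 9.55, 9.34 and 9.46 with shLuciferase in U937, against 8.45 and 8.48 with shSYK_1, 7.46 and 7.44 with shSYK_2, and 6.27, 6.34 and 6.24 with shLuciferase in HL-60. In HL-60 CTSH rose 3.56-fold and BLVRB 3.19-fold. Their line differences were -1.47 ± 0.16 (limma adjusted p = 0.000366) and -1.36 ± 0.09 (limma adjusted p = 7.935e-06).

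The other genes with the lowest line differences all rose in HL-60. PLXNC1, a semaphorin receptor, had a response of 0.07 in U937 and 1.67 in HL-60. PTGS1, a prostaglandin synthase, had -0.05 in U937 and 1.30 in HL-60, with line differences of -1.35 and -1.32 from 2 probe sets and -0.40, not called, from another. S100A6, a calcium-binding protein, had 0.26 in U937 and 1.58 in HL-60, and ADA2, an extracellular adenosine deaminase, 0.60 in U937 and 1.89 in HL-60. FCGRT, the neonatal Fc receptor, had 0.13 in U937 and 1.36 in HL-60, and CALHM2, a channel protein, 0.63 in U937 and 1.81 in HL-60. IFI30, a lysosomal thiol reductase of antigen processing, had 0.22 in U937 and 1.35 in HL-60. IRF5, an interferon regulatory factor, and CD1D, a lipid-presenting molecule, each had a line difference of -1.14, but a second probe set of IRF5 gave -0.25, not called, and the CD1D call was lost in 8 of 24 alternatives.

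**Figure D3:**
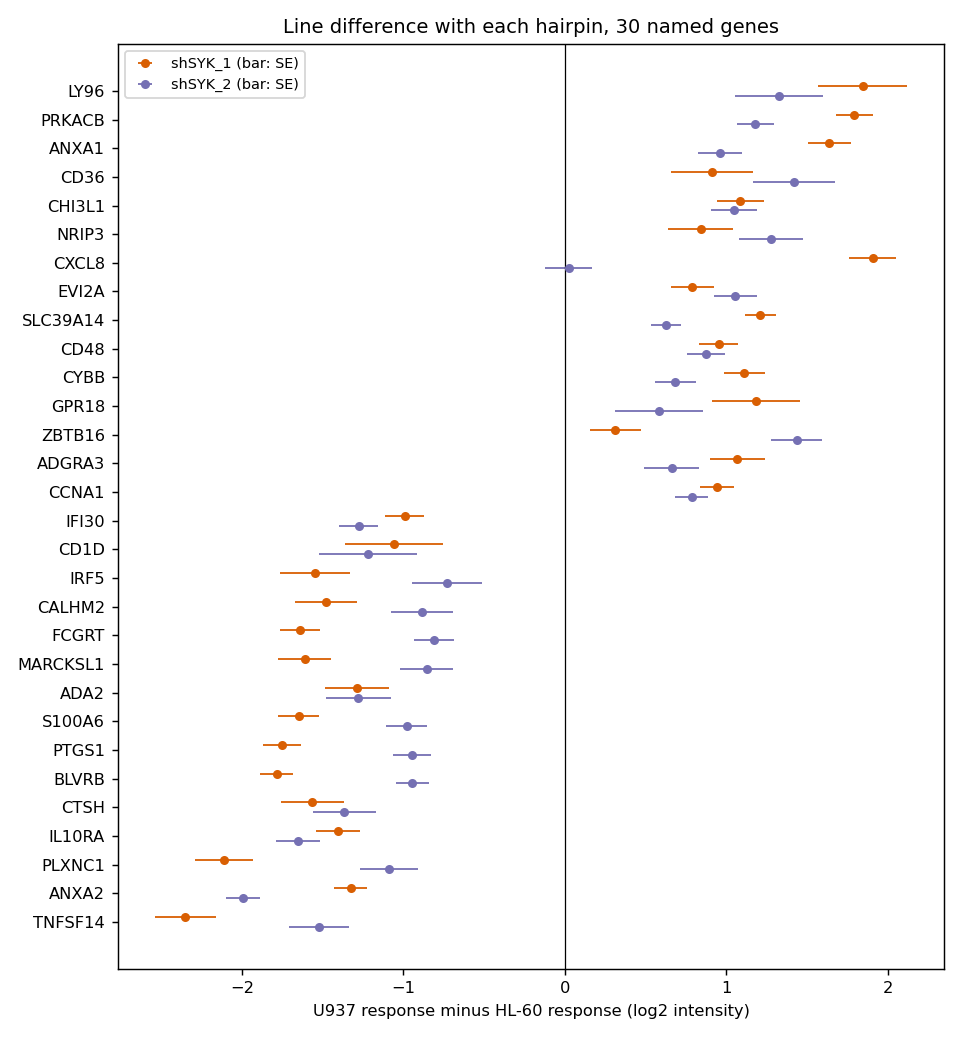
Line difference, U937 response minus HL-60 response, for the 15 highest and the 15 lowest named genes with shSYK_1 (orange) and shSYK_2 (purple), in log2 intensity with bars of 1 standard error. Each gene lies on 1 side of 0 with both hairpins, as the choice of genes required, with CXCL8 at 0.02 for shSYK_2.

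The HL-60 controls of TNFSF14, PLXNC1, IL10RA, CTSH, PTGS1, CALHM2, IRF5 and CD1D also averaged below 5, so their folds in HL-60 are uncertain. With 16 added to each intensity their line differences were -1.37, -1.16, -1.02, -1.03, -0.91, -0.77, -0.79 and -0.86, all called by limma. Of the 30 genes, all remained called without HL-60 shSYK_2 replicate 1 and without replicate 2 of that group. With replicate 1 moved to shSYK_1, 9 lost their call: LY96, CD36, SLC39A14, CCNA1, ADGRA3 and GPR18 among those above, and BLVRB, IRF5 and CD1D among those below. Across 24 alternatives for each of the 30 genes, 684 of 720 line differences stayed called, 36 were lost and 0 reversed. Setting the hairpins side by side over the 376 genes, 97 were called with each hairpin alone, 161 with shSYK_1 alone and 102 with shSYK_2 alone. The test called 836 genes for the line difference with shSYK_1 (6.87% of those tested) and 720 with shSYK_2 (5.92%), and both use the same shLuciferase arrays.

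In 15 of the 376 genes the responses were called in opposite directions, 5 up in U937 and down in HL-60 and 10 the reverse. PRKACB, a catalytic subunit of protein kinase A, was the clearest of the first kind. It read 7.23 and 7.14 with shSYK_1, 6.56 and 6.42 with shSYK_2, and 6.33, 6.45 and 6.46 with shLuciferase in U937, against 6.94 and 6.88 with shSYK_1, 6.73 and 6.93 with shSYK_2, and 7.93, 7.96 and 7.90 with shLuciferase in HL-60. In HL-60 all hairpin arrays fell below the controls, while in U937 the shSYK_1 arrays lay above them and the shSYK_2 arrays overlapped them. Its line difference was 1.49 ± 0.10 (limma adjusted p = 7.935e-06). A second probe set gave 0.81, called, but with a U937 response of -0.0045, so the rise in U937 rests on 1 probe set.

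CCNA1, a cyclin of the myeloid and germ lineages, had a response of 0.30 in U937 and -0.56 in HL-60. NRIP3 had 0.41 in U937 and -0.65 in HL-60, and LTB, the membrane-bound lymphotoxin beta, 0.45 in U937 and -0.30 in HL-60. Each of these responses passed the test. CCNA1 nonetheless differed between hairpins in U937, at 0.76 with shSYK_1 and -0.15 with shSYK_2. In HL-60 CCNA1 stood at -0.19 with shSYK_1, not called, and at -0.93 with shSYK_2. Neither hairpin alone thus gave CCNA1 calls in opposite directions. LTB also differed between hairpins in U937, at 0.75 with shSYK_1 and 0.14 with shSYK_2. The LTB line difference with shSYK_2, 0.36, was not called (limma adjusted p = 0.202).

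Of the genes that fell in U937 and rose in HL-60, MARCKSL1, an actin-regulating MARCKS-like protein, fell with each hairpin in U937. It read 6.68 and 6.57 with shSYK_1, 6.80 and 6.94 with shSYK_2, and 7.36, 7.56 and 7.37 with shLuciferase in U937, against 6.31 and 6.26 with shSYK_1, 5.55 and 6.01 with shSYK_2, and 5.47, 5.51 and 5.46 with shLuciferase in HL-60. Hairpin and control arrays did not overlap in either line. The line difference was -1.23 ± 0.14 (limma adjusted p = 0.000366). In HL-60 the rise with shSYK_1 passed the test, and the change of 0.30 with shSYK_2 did not (limma adjusted p = 0.0962).

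TK1, the thymidine salvage kinase of S phase, DDB2, a damage-binding protein of nucleotide excision repair, CDC25B, a phosphatase that activates cyclin-dependent kinases at mitosis, and CDKN3, a phosphatase that acts on them, completed the named set. Their responses were -0.43, -0.42, -0.36 and -0.37 in U937, against 0.50, 0.42, 0.28 and 0.25 in HL-60. In U937 the falls came from shSYK_2: TK1 read 5.35 and 5.12 with shSYK_1, 3.89 and 3.95 with shSYK_2, and 4.99, 5.08 and 4.95 with shLuciferase. The U937 shSYK_1 values of TK1 lay above the controls and the shSYK_2 values below. CDKN3 rose with shSYK_1 in both lines, by 0.24 in U937 and 0.55 in HL-60, and its HL-60 change with shSYK_2 was -0.06.

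Genes of the cell division cycle were the groups in which the largest share was called. Of 36 measured genes for the G1/S transition and DNA replication, 0 were above and 16 below for the line difference (44.4% against 5.01% of all genes), with a median of -0.33 against 0.00 for all genes. In U937 34 of the 36 fell and 0 rose, and in HL-60 17 fell and 1 rose. Of 30 genes for the G2/M transition and mitosis, 0 were above and 11 below (36.7%), with a median of -0.33. In U937 22 of them fell and 0 rose, and in HL-60 1 fell and 4 rose. With the replicate block, 3 replication genes and 0 mitosis genes were below. Without HL-60 shSYK_2 replicate 1 the numbers below were 18 and 13, and without replicate 2 they were 16 and 14. With replicate 1 moved to shSYK_1 they were 8 and 3, and with median centring 11 and 11.

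That difference depended on the hairpin in size, and for the replication genes in sign too. The median line difference of replication genes was 0.22 with shSYK_1 and -0.89 with shSYK_2. For mitosis genes it was 0.04 and -0.74. In U937, shSYK_2 lowered 35 of the 36 replication genes, where single-hairpin calls downward covered 6.86% of all genes, by a median of -1.01. With shSYK_1 in U937, 6 fell and 2 rose (7.27% and 7.41% of all genes), with a median of -0.02. In HL-60 21 fell and 2 rose with shSYK_1 (10.8% and 11.6% of all genes), at a median of -0.25, and 10 fell and 1 rose with shSYK_2 (9.72% and 8.89%), at a median of -0.11. For mitosis, shSYK_2 lowered all 30 measured genes in U937 by a median of -0.75, and with shSYK_1 in U937 6 rose, 0 fell and the median was 0.11. The HL-60 medians for mitosis were 0.03 with shSYK_1 and -0.07 with shSYK_2.

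Tested directly, the line difference with shSYK_2 was below 0 for 28 of 36 replication genes and 25 of 30 mitosis genes, where such calls covered 3.4% of all genes. With shSYK_1 it was above 0 for 4 replication genes (2.69% of all genes) and below for 0 (4.18%), and for mitosis 0 were called either way. The difference between the hairpins in the line difference, shSYK_2 minus shSYK_1, was called for 1373 of all genes (11.3%), downward in 608 (5.0%). It was downward in 33 of the 36 replication genes and 24 of the 30 mitosis genes, with medians of -1.11 and -0.68. The shLuciferase arrays cancel in that contrast.

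**Figure D4:**
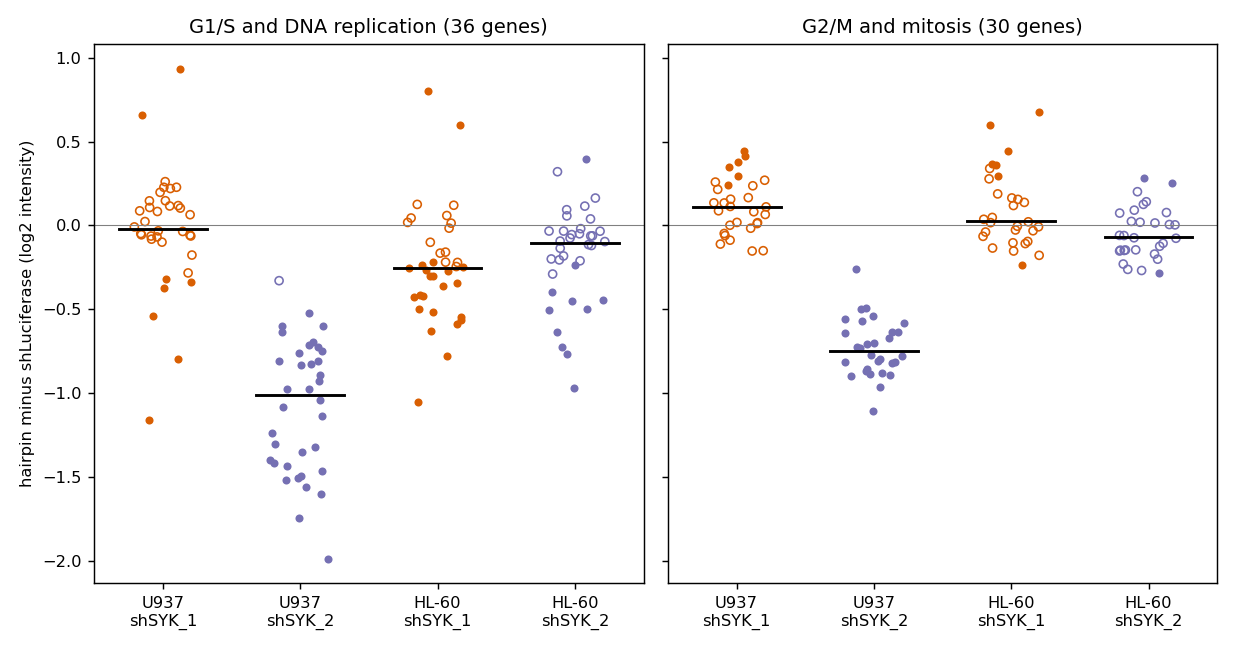
Change of each measured gene for G1/S and DNA replication (36, left) and for G2/M and mitosis (30, right) with 1 hairpin in 1 line, hairpin minus shLuciferase in log2 intensity, with filled points for called genes and a bar at the median. U937 with shSYK_2 stands below the other 3 columns, at medians of -1.01 and -0.75.

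GINS2, a subunit of the replicative helicase, shows the pattern array by array. It read 7.81 and 7.84 with shSYK_1, 6.37 and 6.30 with shSYK_2, and 7.88, 7.87 and 7.75 with shLuciferase in U937, against 7.67 and 7.59 with shSYK_1, 7.70 and 7.87 with shSYK_2, and 7.86, 7.82 and 7.90 with shLuciferase in HL-60. The U937 shSYK_2 arrays stood apart from the other 12. Its line difference was -0.60 ± 0.09 (limma adjusted p = 0.0025), made of 0.23 with shSYK_1 (limma adjusted p = 0.254) and -1.42 with shSYK_2 (limma adjusted p = 6.08e-05). DTL, which marks replication factors for destruction, gave -0.62 ± 0.12 (limma adjusted p = 0.0119), with 0.22 for shSYK_1 and -1.45 for shSYK_2. For mitosis, TOP2A, the topoisomerase that untangles chromosomes, MKI67, the proliferation marker, and NUSAP1, a spindle protein, gave -0.65, -0.57 and -0.55. The named rule of the 3 largest differences chose them. Their calls were lost in 6, 2 and 7 of 24 alternatives.

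Replication genes often carry E2F motifs at their start, so promoters were searched for 2 spellings, TTTCCCGC and TTTGGCGC, on both strands in windows of 300 bases from RefSeq (GRCh38.p14) that lie mostly before the start. Of the 16 called replication genes 12 had a promoter in that set and 8 of these held a match (66.7%). Among all measured replication genes it was 16 of 31 (51.6%), among all measured genes 324 of 9711 (3.34%) and among all promoters 797 of 35116 (2.27%). A match is letters in a window and shows no binding. The promoters of GINS2 (chr16:85688905-85689204, minus strand) and DTL (chr1:212035498-212035797, plus strand) are printed 5′ to 3′ with the match in capitals, to show where it lies in genes that fell with shSYK_2 in U937:
GINS2: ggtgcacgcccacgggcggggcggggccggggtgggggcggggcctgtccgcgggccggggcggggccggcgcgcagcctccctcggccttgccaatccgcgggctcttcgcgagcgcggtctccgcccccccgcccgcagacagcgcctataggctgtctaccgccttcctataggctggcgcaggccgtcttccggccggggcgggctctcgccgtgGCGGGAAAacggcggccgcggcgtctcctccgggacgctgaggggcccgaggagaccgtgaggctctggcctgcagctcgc
DTL: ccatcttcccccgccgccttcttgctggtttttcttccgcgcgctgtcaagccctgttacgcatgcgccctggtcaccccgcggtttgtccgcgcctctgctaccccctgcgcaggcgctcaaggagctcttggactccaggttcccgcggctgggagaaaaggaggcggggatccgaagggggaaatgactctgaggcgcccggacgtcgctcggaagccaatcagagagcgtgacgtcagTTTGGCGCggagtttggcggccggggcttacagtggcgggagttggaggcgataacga
The GINS2 match is on the strand opposite the gene and the DTL match on the gene's own strand.

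Among genes above the lowest intensities in both lines, the hairpins differed most for a handful of genes, most of them in other roles. S100A8, a calcium-binding protein of neutrophils and monocytes, read 7.21 and 7.22 with shSYK_1, 3.87 and 4.11 with shSYK_2, and 4.12, 3.71 and 3.97 with shLuciferase in U937. In HL-60 it read 13.16 and 13.09 with shSYK_1, 12.48 and 12.56 with shSYK_2, and 12.39, 12.36 and 12.33 with shLuciferase. In U937 shSYK_1 arrays alone rose above the controls. Its line difference was 2.52 with shSYK_1 (limma adjusted p = 4.53e-06) and -0.10 with shSYK_2 (limma adjusted p = 0.755), a difference between hairpins of -2.62 ± 0.17. S100A8 lay below 5 in U937 except with shSYK_1, so the size of its change there is uncertain, and with 16 added to each intensity its line difference over both hairpins was 0.75, against 1.21 without. A second probe set of S100A8 gave a line difference of -0.60 over both hairpins, not called.

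CXCL8, SGK1, a growth-factor-induced kinase, and CDC45, a helicase factor, followed with differences between hairpins of -1.88, -1.79 and -1.75. SGK1 read 7.75 and 7.54 with shSYK_1, 5.49 and 5.501 with shSYK_2, and 5.15, 5.09 and 4.92 with shLuciferase in U937, against 7.18 and 7.14 with shSYK_1, 6.76 and 6.84 with shSYK_2, and 5.72, 5.72 and 5.57 with shLuciferase in HL-60. It rose with each hairpin in HL-60, and mainly with shSYK_1 in U937. At the other end stood HNMT, a histamine methyltransferase, at 1.98, IL18, an inflammasome cytokine, at 1.74, CPM, a membrane carboxypeptidase, at 1.67, and MED26, a Mediator subunit, at 1.64. All 4 had line differences below 0 with shSYK_1 and above 0 with shSYK_2. None was called for the line difference over both hairpins (limma adjusted p = 0.622, 0.211, 0.89 and 0.943). In HL-60, HNMT and IL18 reached 5 only with shSYK_1, at means of 5.06 and 5.44. The size of their change there, and so of the difference between hairpins, is uncertain.

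The lists below are read against the shares called among all genes, which for the line difference were 1.82% above and 3.19% below, for U937 6.17% up and 6.44% down, and for HL-60 10.2% up and 11.5% down. Of 26 Fc, TREM and paired immune receptors, many of which signal through SYK, 12 rose in U937 and 21 in HL-60 and 0 fell, at median responses of 0.43 and 0.74, and the line difference was above for 2 and below for 6, with a median of -0.24. List counts keep genes near the lowest intensities, which made up 4 of these calls for the line difference. They made up 4 among the monocyte and macrophage genes below, and 3 each among ERK, interferon and NF-kB genes. TREM1, an amplifying receptor of myeloid cells, rose by 0.91 in U937, where it stayed below 5, and 1.78 in HL-60. Its line difference of -0.87 lost its call in 6 of 24 alternatives. CLEC7A, the beta-glucan receptor Dectin-1, read 2.77 to 3.22 on all U937 arrays, near the lowest intensities, and 5.28 to 6.10 on hairpin arrays against 3.81 to 3.99 on control arrays in HL-60. Without HL-60 shSYK_2 replicate 1, 8 of the 26 were below, and with replicate 1 moved to shSYK_1, 2 were. Of 32 genes of SYK signalling, 1 was above and 4 below. TYROBP, the ITAM adaptor DAP12, rose by 1.04 in U937 and 0.62 in HL-60 (line difference 0.42, limma adjusted p = 0.0233, with 0.72 for shSYK_1 and 0.12 for shSYK_2), and the SRC-family kinase FGR rose by 0.56 in U937 and 0.94 in HL-60 (-0.38, limma adjusted p = 0.0225, with -0.74 for shSYK_1 and -0.03 for shSYK_2). The call was lost in 7 of 24 alternatives for TYROBP and in 10 for FGR.

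Monocyte and macrophage genes split. Of 31, 18 rose in U937 and 19 in HL-60, with 1 lower in each (6.17% and 10.2% of all genes rose), and the line difference was above for 5 and below for 6 (1.82% and 3.19% of all genes). MS4A4A, LY96 and CD36 were among those above, and CD14 among those below. Of 26 genes of late neutrophil maturation, 6 rose in U937 and 12 in HL-60, and 3 were above and 2 below. PADI4, an arginine deiminase of neutrophils, read 2.49 and 2.47 in the 2 U937 hairpin groups and 2.51 in U937 controls, against 6.28 and 5.69 in the HL-60 hairpin groups and 4.62 in HL-60 controls (group means, shSYK_1 first). Of 15 primary granule genes, 2 were above and 1 below. CTSG, cathepsin G, had -0.15 in U937 and -0.54 in HL-60 (line difference 0.38, limma adjusted p = 0.0246). Its call was lost in 8 of 24 alternatives.

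The calls among transcription factors of the myeloid lineages ran one way. Of 30, 0 were above and 7 below for the line difference (1.82% and 3.19% of all genes), with a median of -0.10. The named members were IRF5, KLF4, a factor of monocyte maturation, and PPARG, a nuclear receptor of lipid handling. KLF4 rose by 0.46 in U937 and 1.20 in HL-60 (line difference -0.74, limma adjusted p = 0.00139), and PPARG by 0.56 in U937 and 1.26 in HL-60 (-0.70, limma adjusted p = 0.0114). With shSYK_2 alone neither passed, at -0.39 for KLF4 and -0.29 for PPARG (limma adjusted p = 0.0818 and 0.311), and with shSYK_1 they were -1.09 and -1.10. With shSYK_2 alone 1 of the 30 was below and with shSYK_1 alone 9 were. When the array of doubtful label was moved to shSYK_1, 0 were called.

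Of 34 genes of ERK feedback and the immediate early response, 1 was above and 4 below for the line difference (1.82% and 3.19% of all genes). The 3 largest called differences belonged to ID1, ID2 and ID3, inhibitors of basic helix-loop-helix factors. ID1 read 5.24 and 5.38 with shSYK_1, 4.76 and 5.03 with shSYK_2, and 5.96, 6.32 and 6.41 with shLuciferase in U937, while HL-60 arrays lay between 2.996 and 3.58, near the lowest intensities. It fell to 45.8% of control in U937 (line difference -1.40 ± 0.17, limma adjusted p = 0.000557). ID2 had -0.06 in U937 and 0.62 in HL-60, and ID3, near the lowest intensities in both lines, 0.01 in U937 and 0.73 in HL-60.

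Of 39 interferon-response genes, 1 was above and 4 below (1.82% and 3.19% of all genes). MX2, an antiviral GTPase, read 9.18 and 9.16 with shSYK_1, 9.19 and 9.31 with shSYK_2, and 9.34, 9.30 and 9.40 with shLuciferase in U937, against 5.32 and 5.41 with shSYK_1, 5.24 and 5.32 with shSYK_2, and 4.48, 4.53 and 4.34 with shLuciferase in HL-60. Its rise in HL-60 had no match in U937, where the control level was far higher (line difference -1.01 ± 0.09, limma adjusted p = 6.58e-05). USP18, a brake on interferon signalling, fell in U937 by 0.73, with -1.40 for shSYK_1 and -0.07 for shSYK_2. In HL-60 USP18 lay near the lowest intensities, at 3.37 to 4.23 on all arrays. IFIT1, near the lowest intensities in both lines, rose by 0.87 in U937, with a response of -0.14 in HL-60.

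In antigen presentation, 2 of 24 genes were above and 5 below (1.82% and 3.19% of all genes). The class II genes HLA-DRB1 and HLA-DRA were those above, at 1.00 and 0.75, both near the lowest intensities in HL-60, and HLA-DRA moved with shSYK_2 only in U937, by 1.73 against -0.09 with shSYK_1. HLA-DRA lost its call in 13 of 24 alternatives, among them the fit without HL-60 shSYK_2 replicate 1, which gave 0.72 (limma adjusted p = 0.0576). Of 34 NF-kB and inflammatory genes 4 were above and 3 below. Those below included IL1B, an inflammasome-processed cytokine, with 0.21 in U937 and 1.16 in HL-60. They also included PTGS2, the inducible prostaglandin synthase, near the lowest intensities in both lines, with 0.09 in U937 and 0.94 in HL-60. The PTGS2 call was lost in 9 of 23 alternatives. Of 33 lysosomal and proton pump genes 18 rose in U937 and 24 in HL-60 (6.17% and 10.2% of all genes). For the line difference 0 were above and 5 below (1.82% and 3.19% of all genes). Those 5 included CTSZ, a cathepsin, TFEB, a regulator of lysosomal genes, and FUCA1, a fucosidase, at -0.86, -0.53 and -0.43. TFEB stood near the threshold (limma adjusted p = 0.0458), lost its call in 16 of 24 alternatives and gave -0.12 with a second probe set, and a second probe set of CTSZ gave -0.37, neither called.

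Of 32 integrins and adhesion genes, 2 were above and 6 below (1.82% and 3.19% of all genes). ITGB7, an integrin beta chain, read 3.36 and 3.34 in the U937 hairpin groups and 3.22 in U937 controls, against 6.37 and 6.09 in the HL-60 hairpin groups and 4.85 in HL-60 controls, so its line difference of -1.25 counts among those near the lowest intensities in U937. PECAM1, an adhesion receptor of leukocytes and endothelium, had 0.17 in U937 and 1.05 in HL-60, and ICAM2, an integrin ligand, fell by 0.35 in U937 and by 1.17 in HL-60.

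Metabolic genes differed by single members. HK1, the hexokinase of most tissues, read 8.46 and 8.36 with shSYK_1, 8.34 and 8.36 with shSYK_2, and 8.18, 8.21 and 8.16 with shLuciferase in U937, against 7.38 and 7.51 with shSYK_1, 6.91 and 7.17 with shSYK_2, and 6.06, 6.04 and 5.98 with shLuciferase in HL-60. It led 24 glycolysis and hypoxia genes, 1 above and 3 below, with a line difference of -1.02 ± 0.10 (limma adjusted p = 0.000112). SLC2A3, a glucose transporter, had 0.39 in U937 and 1.06 in HL-60. Its line difference was -0.67, and its other probe sets gave -0.10 to -0.40, none called. FASN, fatty acid synthase, was 1 of 24 sterol and fatty acid genes above, with none below, at 0.03 in U937 and -0.64 in HL-60. A second probe set of FASN gave a line difference of 0.23 and an HL-60 response of -0.08, neither called. The fall in HL-60 thus rests on 1 probe set. TFRC, the transferrin receptor, at 0.63 was above, and BLVRB and ME1, a malic enzyme near the lowest intensities in U937, were below among 24 haem, iron and redox genes.

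Of 30 genes of the MYC network and ribosome biogenesis, 10 fell in U937 and 23 in HL-60 (6.44% and 11.5% of all genes) and 0 rose in either, but the line difference was called for 1, POLR1C, an RNA polymerase I and III subunit, at 0.47. The median line difference of that list was 0.16. Of 31 genes of the ATF4 amino acid response, 1 was above and 2 below, while the difference between hairpins was above 0 in 16 (6.29% of all genes), with a median of 0.39. SLC7A11, the cystine transporter, gave a line difference of -0.09 with shSYK_1 and 0.81 with shSYK_2. Over both hairpins it was 0.36, and that call was lost in 9 of 24 alternatives. Of 28 p53 targets and BCL2 family genes 1 was above and 3 below, with BCL2A1, a survival factor, at 0.51. TYK2 alone was called of 28 genes around STAT5, and lost its call in 14 of 24 alternatives, and 2 of 39 histone genes were.

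Besides the marker lists of other cell types, limma called 0 genes for the line difference in 3 lists. They were 31 genes of oxidative phosphorylation, 18 of HOXA and stem-like genes and 25 ribosomal proteins, with 1, 3 and 0 at an unadjusted p under 0.05. Their medians were -0.005, -0.02 and -0.008.

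**Figure D5:**
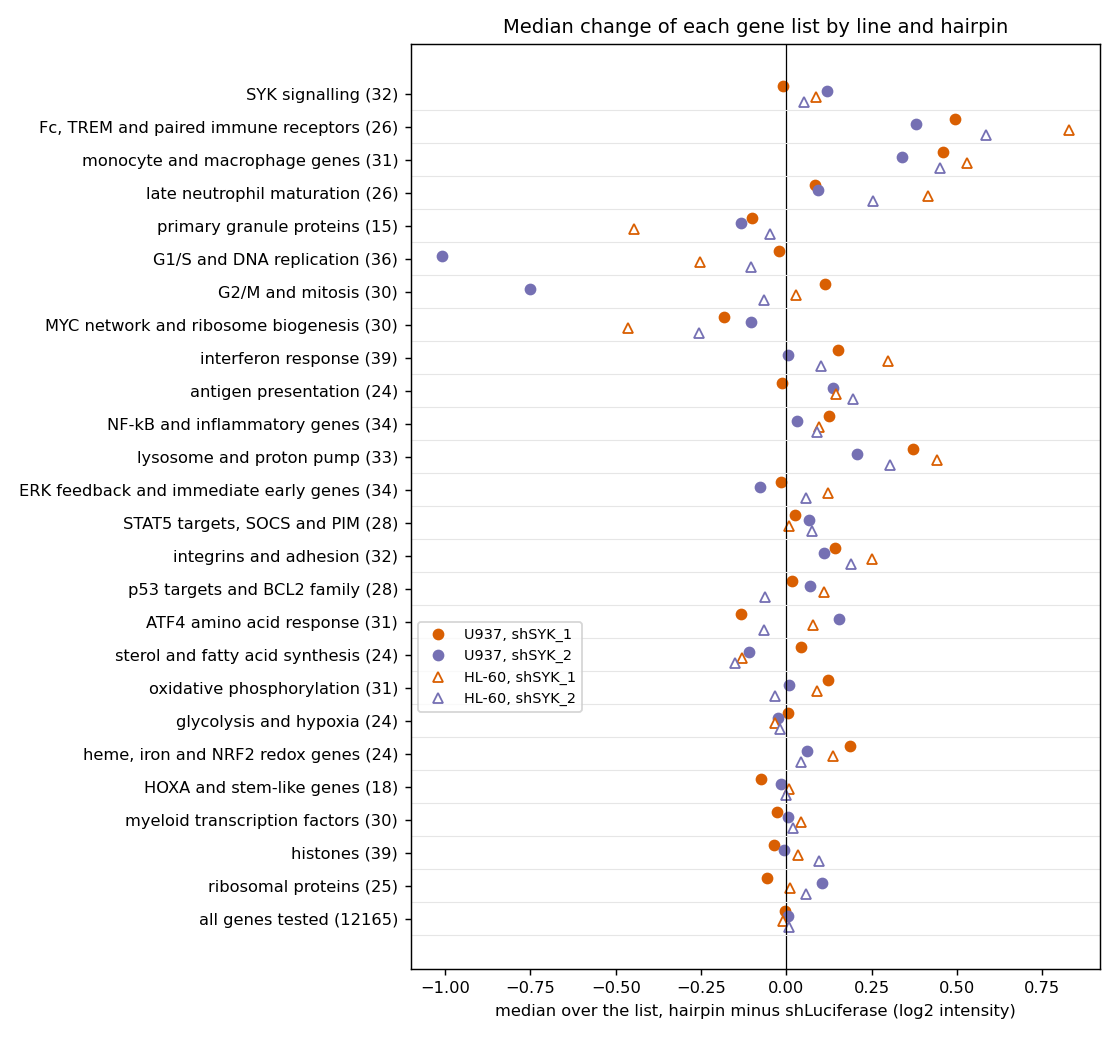
Median change of each gene list (number of measured genes in brackets) with 1 hairpin in 1 line, hairpin minus shLuciferase in log2 intensity, circles for U937 and triangles for HL-60, with all 12165 genes in the lowest row. The replication and mitosis lists with shSYK_2 in U937 lie furthest left, and the Fc and TREM receptors lie right of 0 in all 4 columns.

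Of the 609 calls, 187 belonged to genes near the lowest intensities, 76 of them in both lines, 69 in U937 only and 42 in HL-60 only. CD14 was the plainest of these. It read 2.58 to 3.09 on all 7 U937 arrays, and in HL-60 9.48 and 9.51 with shSYK_1, 8.27 and 8.50 with shSYK_2, and 6.48, 6.604 and 6.56 with shLuciferase. Its 5.24-fold rise in HL-60 had no counterpart at the U937 level, where a change could not be read (line difference -2.34). OLR1, the lectin-like receptor for oxidised lipoprotein, and PLA2G7, a phospholipase of lipid mediators, gave -2.69 and -2.24 with U937 at the lowest intensities too, and PLA2G7 had like values with both hairpins, at -2.25 and -2.22.

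In the other direction stood MS4A4A, a macrophage membrane protein, TDO2, tryptophan dioxygenase, and PLCB4, a phospholipase C. MS4A4A read 6.78 and 6.996 with shSYK_1, 5.25 and 5.26 with shSYK_2, and 3.12, 2.71 and 3.62 with shLuciferase in U937, and 2.28 to 2.77 on all HL-60 arrays. TDO2 read 6.44 and 6.29 with shSYK_1, 2.88 and 3.09 with shSYK_2, and 2.44, 2.31 and 2.37 with shLuciferase in U937, so its line difference of 2.20 rested on shSYK_1. PLCB4 fell by 1.35 in HL-60 (line difference 1.43) and lay at 2.52 to 2.80 on all U937 arrays.

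MOLM-14 was measured on 7 other arrays with the same hairpins, and its responses for the 376 genes follow. For the 136 above, the median response was 0.07 in U937, -0.39 in HL-60 and -0.08 in MOLM-14. For the 240 below it was 0.00 in U937, 0.53 in HL-60 and 0.10 in MOLM-14. The 376 were chosen for unlike responses in U937 and HL-60, and their median responses in U937 lay near 0. Any line with small responses can lie nearer U937 by that choice, so the next count shows no likeness between lines. The MOLM-14 response lay nearer that of U937 in 267 of the 376 and nearer that of HL-60 in 109. No such share was computed over all genes. PTGS1 was one of the exceptions, with a rise of 0.83 in MOLM-14 that lay nearer the HL-60 response, while ADA2 at 1.20, S100A6 at 0.83 and CD48 at 2.29 lay nearer the U937 response.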

How the data were processed

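The authors deposited 1 linear intensity per probe set and array, and the submitters' processing notes name RMA, with its version not given in the sources used here. RMA corrects background, equalises array distributions and summarises probes, and it shrinks differences of dim probe sets. The deposited intensity ran from 3.23 to 13024.67, with medians of 18.37 to 20.59 on the 14 arrays. Upper quartiles of 13 arrays lay between 134.62 and 139.77, and that of the array with disagreeing labels was 122.3. Of 22277 probe sets, 62 were controls, 19724 named 1 gene in the platform annotation, 568 several and 1923 none. Symbols of 19707 were updated through RefSeq gene IDs (GRCh38.p14). The brightest probe set stood for each of 12165 genes.

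Log2 values of 14 arrays were fitted with 6 group means in limma 3.58.1 (R 4.3.3), with 8 residual and 3.9 prior degrees of freedom, two-sided, and p-values were adjusted by Benjamini-Hochberg over 12165 genes, called below 0.05. Array number limits the precision. The script was tested on simulated data. MOLM-14 values came from a fit of all 21 arrays. Tables were made with Python 3.11.15.

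Named genes were SYK, FLT3 and MYC, the 15 highest and 15 lowest called genes with like signs for both hairpins and above the lowest intensities, 10 called in opposite directions, the 3 largest called of each of 30 lists, 4 and 4 for the hairpins, and 3 and 3 near the lowest intensities. Members, lists and rules were chosen with earlier results of these data known. Alternatives were all 21 arrays, a trended robust prior, array weights, centring, quantile normalization, leaving out the dimmest 40%, an offset of 16, the mean of probe sets, the replicate block, the doubtful array placed in shSYK_1, leaving out each array and a change of at least 0.5.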

Additional observations from a re-analysis of the deposited data

Results flagged for a closer look

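Genes whose responses were called in opposite directions in the lines, with the difference itself tested by limma, were TNFSF14 (line difference -1.94), PRKACB (1.49), MARCKSL1 (-1.23), NRIP3 (1.06), TK1 (-0.93), CCNA1 (0.86), DDB2 (-0.85), LTB (0.75), CDC25B (-0.64) and CDKN3 (-0.62). A positive value means that the mean over both hairpins rose in U937 and fell in HL-60. DDB2, TK1 and CDC25B fell in U937 with shSYK_2 (-0.74, -1.09 and -0.77) and were not called there with shSYK_1 (-0.10, 0.23 and 0.05). CDKN3 fell in U937 with shSYK_2 (-0.99) and rose with shSYK_1 (0.24, limma adjusted p = 0.0491). In HL-60 CDKN3 rose with shSYK_1 (0.55) and stood at -0.06 with shSYK_2. Neither hairpin alone thus gave CDKN3 calls in opposite directions.

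The line difference itself also differed between the hairpins, shSYK_2 minus shSYK_1 by the same fit. Among genes above the lowest intensities in both lines, the most positive were HNMT (1.98), IL18 (1.74), CPM (1.67) and MED26 (1.64). The most negative were S100A8 (-2.62), CXCL8 (-1.88), SGK1 (-1.79) and CDC45 (-1.75). Each of these 8 passed the test, with limma adjusted p from 5.13e-06 for CDC45 to 0.000655 for CPM. HNMT and IL18 in HL-60, and S100A8 in U937, reached a group mean of 5 only with shSYK_1, so their sizes are uncertain. Groups held 2 or 3 arrays, too few to look gene by gene for single arrays far from their group. Over all genes the HL-60 shSYK_2 arrays differed more (SD of log2 differences 0.294) than other replicate pairs (0.164 to 0.199).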

How the results depend on the processing

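Counts of called genes changed with several settings, and the cause was not tested. For the line difference (609) they were 1034 with a trended robust prior, 1052 with an offset of 16, 130 with the replicate block, 169 when the array of doubtful label was moved to shSYK_1 and 360 at a change of at least 0.5. Leaving out single arrays gave 361 to 1329, with 361, 378 and 389 without U937 shLuciferase replicates 1 and 3 and HL-60 shLuciferase replicate 3, and 1329 without HL-60 shSYK_2 replicate 2. For U937 (1533) the replicate block gave 549, the placed array 788, the 0.5 minimum 398 and single arrays 926 to 1909. For HL-60 (2641) these gave 1453, 1244, 767 and 2047 to 3505. For shSYK_1 (836) the prior gave 1297, the offset 1347, the block 208, the placed array 363 and single arrays 483 to 1103. For shSYK_2 (720) they were 1278, 1218, 204, 182 and 339 to 2049, with 464 under array weights. For the hairpins' difference (1373) array weights gave 903, the block 580, the placed array 320 and single arrays 760 to 2472. The 12 correlations of same-numbered arrays' deviations ran from -0.21 to 0.09, 0 of them over 0.1, so the numbers were not taken as pairs. Of the called genes near the lowest intensities (187), 122 remained at a level of 4.

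Of 2149 recomputed line differences of the 90 called named genes, 1917 stayed called, 231 lost the call and 1 reversed: H2AX went to 0.0039 under the mean over probe sets, against -0.29. For HP and S100A8 that mean gave -0.24 and 0.30, not called. Dim probe sets limit what can be read below 5.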
